A study of Mus musculus with 23 samples.

Results

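Mgp encodes matrix Gla protein, and its transcript differed more widely between treatments than most others measured in plasticizer-treated TM4 cells. Mgp was chosen by these measured differences between treatments, so its levels and differences are given as a description and carry no test. It is 1 of 20145 named genes on the array and was read by 1 of the 55681 non-control probes, which matched the RefSeq transcript of Mgp, a protein-coding gene on mouse chromosome 6. The study screened proposed replacements for the phthalate plasticizer DEHP in TM4 cells, a mouse Sertoli line that grows without limit. Sertoli cells line the seminiferous tubule and nurse the developing germ cells. All cultures received 1.0% DMSO for 48 hr. The vehicle group received nothing more (DMSO, n = 4), and the treated groups also received 100 μM of 1 compound. These were MEHP, the monoester metabolite of DEHP (n = 4), the commercial plasticizer DINCH, a diester with a saturated ring (n = 4), dioctyl maleate (DOM, n = 4), the dibenzoate BDB (n = 4) and dioctyl succinate (DOS, n = 3, replicates 1, 3 and 4). DOM and DOS have the same dioctyl ester form and differ in the central acid, which holds a double bond in maleate and none in succinate. The groups model 1 cell line at 1 dose and 1 time.

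Matrix Gla protein is a small secreted protein of the extracellular matrix that prevents calcification of arteries and cartilage. Vascular smooth muscle cells and chondrocytes are its best known sources. It becomes active when vitamin K-dependent carboxylation turns glutamate residues into Gla residues, which bind calcium. It also binds bone morphogenetic proteins (BMPs) and limits their signalling, and it associates with fibronectin and elastic fibres.

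RNA from each of the 23 cultures was hybridized to its own 1-colour array, and the arrays lay on 3 slides. Precision is limited by how many arrays each group has, since arrays carry no sequencing depth. The level of a gene is the log2 of its background-corrected signal minus the log2 of the 75th percentile of the same array, so that 0 stands for a signal at that percentile and 1 unit for a 2-fold difference. The 75th percentile signal ranged from 204.6 to 350.7, and 43.4% to 52.2% of spots were well above background. Of 16 Sertoli cell markers, 7 were well above background on all 23 arrays (among them Gata4, Dhh, Inhba, Inhbb, Kitl and Dmrt1), while the defining markers Wt1, Fshr and Cldn11 were so on 0 arrays. Of the 6 chondrocyte and osteoblast markers, Col2a1, Comp, Matn3 and Sp7 were well above background on 0 arrays. Acan was so on 1 to 3 arrays of each group, and Col10a1 on 2 DOM arrays alone. Of the smooth muscle markers, Acta2, Tagln, Cnn1 and Smtn were well above background on all 23 arrays, Des on 1 MEHP array alone and Myh11 on 0. A lower level in bulk RNA cannot tell fewer cells that make a transcript from less transcript per cell.

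Mgp was well above background on 23 of 23 arrays, and on none was its spot saturated or marked as an outlier. On the DMSO arrays Mgp stood at −0.70, 0.49, 0.42 and 0.43 in replicates 1 to 4, a mean of 0.16 ± 0.57 (SD, n = 4). This is close to the 75th percentile of the array, with replicate 1 apart from the other 3. On the DINCH arrays it stood at −3.75, −2.90, −2.59 and −2.75, with a mean of −2.997 ± 0.52 (SD, n = 4). On the DOM arrays it stood at 3.13, 3.67, 3.51 and 4.30, with a mean of 3.65 ± 0.49 (SD, n = 4). DINCH and DOM held the lowest and the highest 4 of the 23 values, on opposite sides of the vehicle. The MEHP arrays gave −1.59, −0.72, −0.84 and −0.18 and a mean of −0.83 ± 0.58 (SD, n = 4). The BDB arrays gave −0.44, 0.99, 0.91 and 1.29 and a mean of 0.69 ± 0.77 (SD, n = 4). The 3 DOS arrays gave 0.54, 1.46 and 1.78 and a mean of 1.26 ± 0.64 (SD, n = 3). MEHP and BDB each had arrays within the DMSO range, whereas all 3 DOS arrays lay above the 4 DMSO arrays, the closest of them by 0.06.

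**Figure D1:**
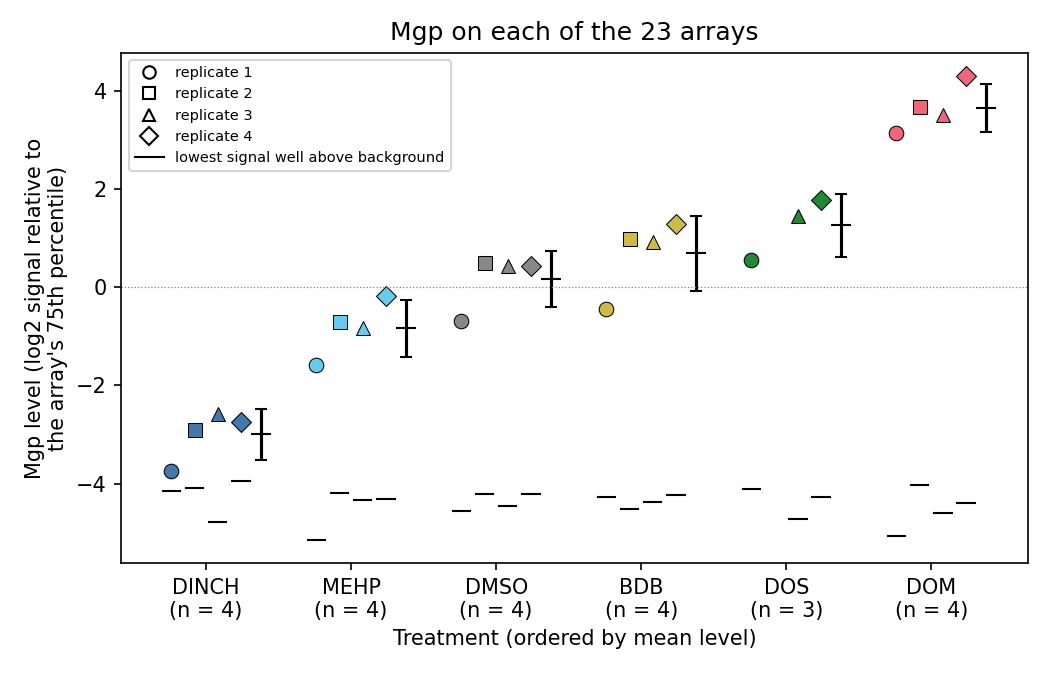
Mgp level on each of the 23 arrays (vertical axis, log2 signal relative to the array's 75th percentile) by treatment, ordered by mean; symbols are replicates, bars the mean ± SD, and short lines the lowest signal well above background on each array. The 4 DINCH arrays lie between −3.75 and −2.59 and the 4 DOM arrays between 3.13 and 4.30, with the other groups between them, and replicate 1 is the lowest of every group.

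As a share of the array's 75th percentile signal, the mean level was 1257% with DOM, 239.8% with DOS, 161.3% with BDB, 111.8% with DMSO, 56.2% with MEHP and 12.5% with DINCH. In this order the arrays of neighbouring groups overlapped for DOS and BDB, for BDB and DMSO and for DMSO and MEHP, so that single arrays of these neighbours did not separate when the shared replicate numbers were left aside. DOM was separated from DOS by 1.35 and MEHP from DINCH by 1.00, taken between the closest arrays. The DINCH level is the least secure of the 6. Its processed signals were 15.2, 32.6, 48.7 and 36.0 in replicates 1 to 4, on arrays where the lowest signal well above background was 11.6, 14.4, 10.7 and 15.6. On the DOM arrays the processed signals were 3073, 3557, 3655 and 5061.

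Relative to DMSO, Mgp was lower with DINCH by 8.92-fold, a log2 difference of −3.16 (SE 0.32). With DOM it was 11.2-fold higher, a difference of 3.49 (SE 0.31). The 4 DINCH arrays lay below all DMSO arrays and the 4 DOM arrays above them. With another background correction (normexp), the DINCH difference was −1.87. Mgp was 1.99-fold lower with MEHP, a difference of −0.99 (SE 0.34) with a 95% interval from −1.77 to −0.22, although MEHP replicate 4 lay above DMSO replicate 1. It was 2.15-fold higher with DOS, a difference of 1.101 (SE 0.37) with an interval from 0.26 to 1.94. Since Mgp was chosen by these differences, the intervals given for it here and below are a description and no test of a difference from 0. With BDB the difference was 0.53 (SE 0.39, 95% interval −0.35 to 1.41), and with the replicate number as a block, which removes what arrays of 1 number have in common, it was 0.53 (SE 0.11). The BDB value was 0.24 without DMSO replicate 1 and 0.90 without BDB replicate 1.

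The replicate numbers are shared by the groups, and differences were also taken between arrays of 1 number. For DINCH minus DMSO these were −3.05, −3.38, −3.01 and −3.18 in replicates 1 to 4. For DOM minus DMSO they were 3.83, 3.19, 3.09 and 3.86. The direction was the same in 4 of 4 pairs for each. MEHP gave −0.90, −1.20, −1.26 and −0.61, all below 0. BDB gave 0.26, 0.50, 0.49 and 0.86, and DOS gave 1.24, 1.03 and 1.35 in its 3 pairs, all above 0. The direction was thus the same in every pair of each compound, also where the arrays of a group overlapped with DMSO.

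**Figure D2:**
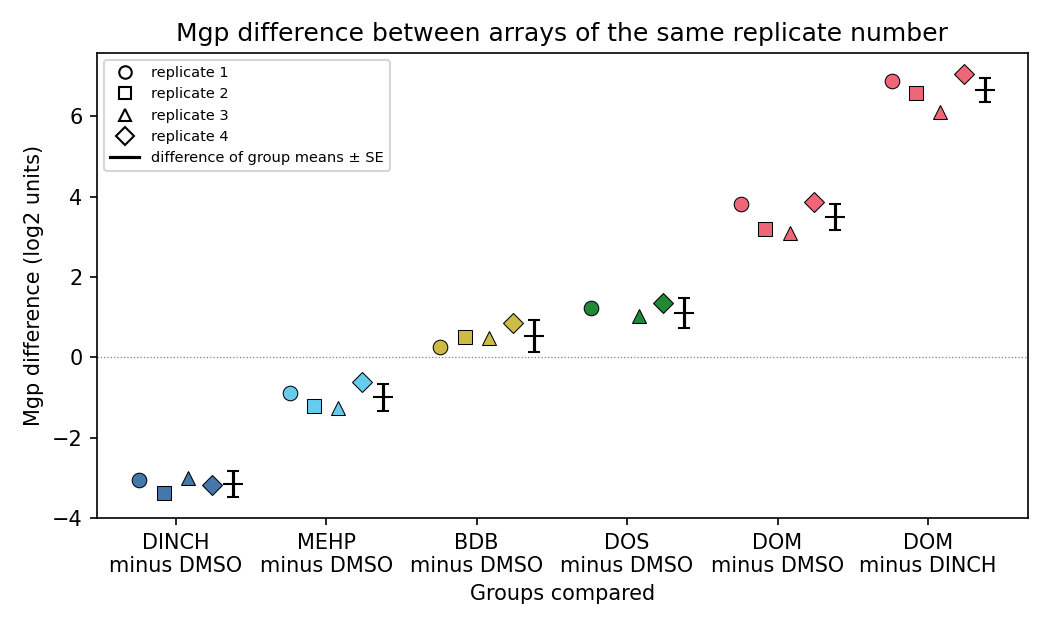
Mgp difference in log2 units (vertical axis) between arrays that share a replicate number, for each compound minus DMSO and for DOM minus DINCH; symbols are replicate numbers and bars the difference of group means ± SE. Every pair of DINCH and MEHP lies below 0, every pair of BDB, DOS and DOM lies above 0, and DOM minus DINCH lies between 6.10 and 7.05.

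All 5 compounds were given at the same dose for the same time, which allows 10 pairs of compounds to be set against each other as a description. DOM and DINCH were farthest apart, at a log2 difference of 6.65 (SE 0.29), or 100.3-fold, and their closest arrays were 5.72 apart. With the normexp background correction this log2 difference was 5.19, so the size of the fold depended on the background correction. The maleate and the succinate, which share their ester form, differed by 5.24-fold. DOS was below DOM by −2.39 (SE 0.34, 95% interval −3.16 to −1.62), with every DOS array under every DOM array. DINCH was below the phthalate monoester MEHP by −2.16 (SE 0.32), or 4.48-fold, and the arrays of these groups did not overlap. Between the 2 proposed replacements DOS and BDB the difference was 0.57 (95% interval −0.40 to 1.54) and their arrays overlapped, while the 3 pairs of 1 number gave 0.98, 0.54 and 0.49, all higher with DOS. MEHP and BDB overlapped as well, since BDB replicate 1 lay below MEHP replicate 4, at a difference of 1.52 (SE 0.39). The remaining 5 pairs did not overlap.

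Among the genes measured well enough to be tested, the Mgp differences stood near the ends of the range. To be tested, a probe needed signals well above background and no lower than the 20th percentile on all arrays of 1 or both groups compared. A gene with several probes was represented by its brightest. In DINCH minus DMSO, Mgp had the lowest value of 11909 genes, where the median size of a difference was 0.19. In DOM minus DINCH it had the highest value of 11884 genes. In DOM minus DMSO it was 2nd highest of 11999 genes, and the 1 gene above it was Thbs2, named here after its values were seen, at 4.14 (SE 1.53). The Thbs2 value rested on DMSO replicate 4, which stood at −2.32 while the other DMSO arrays stood at 4.57 to 5.67. Mgp ranked 43rd from the lowest of 11943 genes with MEHP, 41st from the highest of 11932 with DOS and 214th from the highest of 11965 with BDB.

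Replicate 1 had the lowest Mgp level in 6 of 6 groups. Of 21533 probes well above background on all arrays, 421, or 1.96%, had this arrangement. Measured from the group means, Mgp deviated by −0.79 on average in replicate 1, by 0.17 in replicate 2, by 0.16 in replicate 3 and by 0.49 in replicate 4. On slides 1, 2 and 3 the mean deviation was −0.58, 0.15 and 0.44. Slides held several groups each, and within the 3 slides DINCH minus DMSO ranged from −3.35 to −3.05, DOM minus DMSO from 3.05 to 4.10 and DOM minus DINCH from 6.41 to 7.15. MEHP minus DMSO ranged from −1.29 to −0.46 and BDB minus DMSO from 0.26 to 0.86, and DOS minus DMSO was 1.19 and 1.24 on the 2 slides that held both. DMSO, DOM and DOS always lay in columns 2 and 4 of a slide and MEHP, DINCH and BDB in columns 1 and 3, so the column and the treatment cannot be told apart when the latter 3 are compared with DMSO or DOM. DOM, DOS and DMSO shared their columns, as did DINCH, MEHP and BDB.

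The genes most like Mgp were sought by Pearson correlation of levels over the 23 arrays among 12164 genes. The arrays share treatments, slides and control cultures, so the coefficients describe likeness and are no test. There were 56 genes at 0.9 or above, 338 at 0.8 or above and 346 at −0.8 or below. The 10 highest were Gm13275 (0.97), Gm10638 (0.96), Irs1, Cela1, Myl4, Antxr2, 1700052K11Rik, Morc2a, Gm13272 and Col22a1 (0.94). Antxr2 encodes a cell surface receptor that binds collagen and laminin. Col22a1 encodes a collagen of tissue junctions, a matrix protein as is matrix Gla protein. Irs1 carries signals from the insulin receptor, Cela1 is an elastase and Myl4 a myosin light chain. Gm13275 and Gm13272 are predicted protein-coding genes, while Gm10638 and 1700052K11Rik are listed as long noncoding RNAs.

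With DINCH and with DOM, the differences of these 10 genes from DMSO had the sign of the Mgp difference and were smaller. For Irs1 the difference from DMSO was −0.65 with DINCH, −0.22 with MEHP, 0.07 with BDB, 0.52 with DOS and 1.33 with DOM. For Col22a1 it was −1.38 with DINCH, −1.02 with MEHP, 0.08 with BDB, 0.53 with DOS and 1.61 with DOM. All 10 genes kept the same order of compounds as Mgp, which their choice by correlation with Mgp over the same arrays favoured. Cela1 had MEHP at 0.03, just above DMSO. The 5 genes with the most opposite pattern were Oasl1 (−0.97), Vegfc, Ufl1, Ppp6r2 and Ralgps2 (−0.94). Oasl1, an interferon-induced gene, was 1.498 above DMSO with DINCH and −2.11 from it with DOM. Vegfc, a lymphatic growth factor, was 0.87 above DMSO with DINCH and −0.90 from it with DOM.

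**Figure D3:**
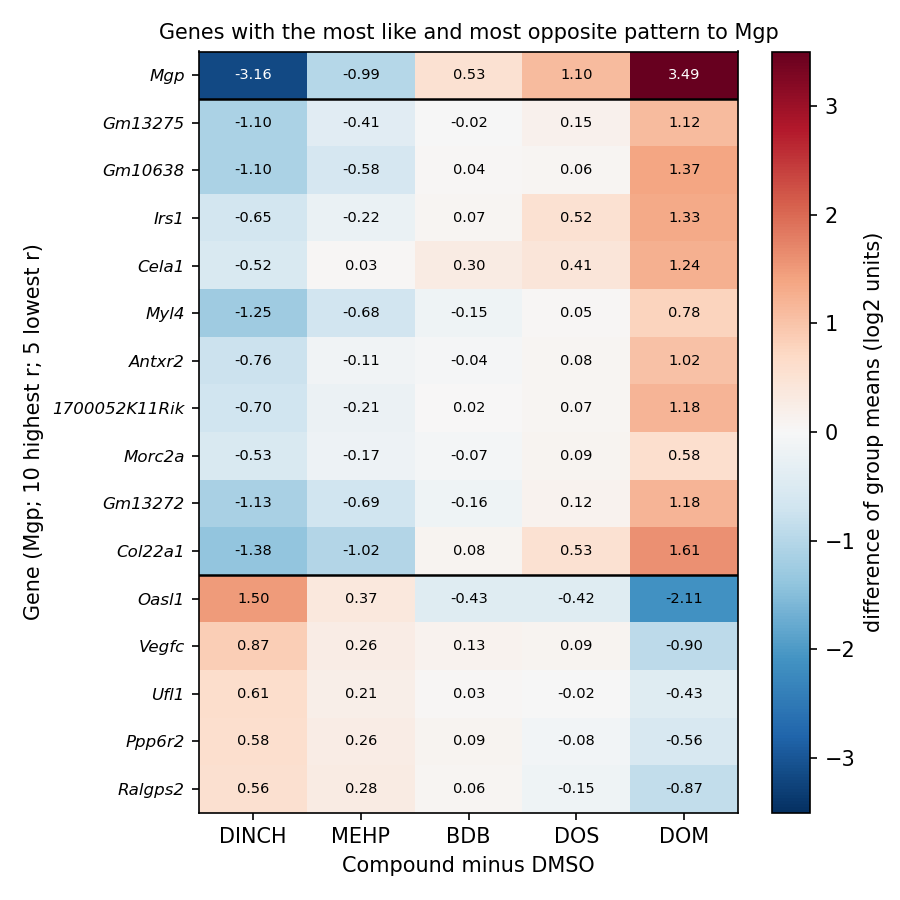
Difference of group means from DMSO in log2 units (colour and printed value) for Mgp, the 10 genes with the highest and the 5 with the lowest Pearson correlation with Mgp over the 23 arrays; columns are compounds ordered by the Mgp difference. Mgp runs from −3.16 with DINCH to 3.49 with DOM, Col22a1 from −1.38 to 1.61, and Oasl1 runs the other way from 1.498 to −2.11.

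Genes that work with matrix Gla protein were described from 6 lists of 104 genes. The lists cover the vitamin K cycle, other Gla proteins, regulators of mineralization, BMP signalling, elastic fibres and transcription factors taken as possible regulators of Mgp. Of the 104 genes, 103 had a probe and 67 or 68 passed the test filter in each comparison. A gene was called when limma's moderated test gave a Benjamini-Hochberg adjusted p below 0.05 over all probes tested and the change exceeded 1.5-fold. With DINCH 7 of 67 listed genes were called against DMSO, 1 higher and 6 lower, a share of 10.4% where 6.96% of all tested genes were called, 3.8% higher and 3.17% lower. With DOM 18 of 68 were called, 13 higher and 5 lower, a share of 26.5% beside 18.5% of all tested genes, 8.78% higher and 9.75% lower. The median difference of the listed genes with DOM was 0.19, and that of all genes was −0.03. With MEHP 2 of 67 were called, 1 higher and 1 lower, or 2.99% beside 1.52% of all tested genes, 1.02% higher and 0.494% lower. With BDB 0 of 68 and with DOS 0 of 67 listed genes were called by limma, as were 0% of all tested genes in both, while 6 listed genes for BDB and 6 for DOS had an unadjusted p below 0.05, shares of 8.82% and 8.96% beside 16.3% and 6.34% of all tested genes. Between DOM and DINCH 25 of 67 were called, 19 higher with DOM and 6 lower, or 37.3% beside 20.5% of all tested genes, 9.95% higher and 10.5% lower. At an unadjusted p below 0.05 stood 17.9% of the listed genes beside 18.8% of all tested genes with MEHP, and 28.4% beside 30.8% with DINCH. With DOM these shares were 50% beside 47.3%, and in DOM minus DINCH 61.2% beside 47.1%. The shares of the lists were not tested against those of all genes. The comparisons with DMSO share its 4 arrays.

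The vitamin K cycle, which produces the Gla residues, held no called gene. The carboxylase Ggcx, the reductases Vkorc1, Vkorc1l1 and Aifm2 and the carboxylase inhibitor Calu were all above background on 23 arrays. In each of the 6 comparisons 0 of the 6 genes on the list were called by limma and 0 had an unadjusted p below 0.05, where the share over all tested genes ran from 6.34% with DOS to 47.3% with DOM. With DOM the differences from DMSO lay between −0.24 for Vkorc1l1 and 0.29 for Vkorc1. With DINCH the difference was 0.28 for Vkorc1 and −0.09 for Vkorc1l1.

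Of 16 other Gla proteins 7 were tested. With DOM 3 of these were called, a share of 42.9% beside 18.5% of all tested genes. Gas6, a ligand of the TAM receptor kinases, rose by 1.04 (SE 0.23, adjusted p = 0.0087 by limma) and Prrg2, a membrane Gla protein, by 0.73 (SE 0.09, adjusted p = 0.00065). Bglap3, a gene of the osteocalcin cluster whose probe may also read near-identical copies, fell by 0.88. With DINCH 0 of the 7 were called and 1 had an unadjusted p below 0.05, as 30.8% of all tested genes did. Gas6 differed from DMSO there by 0.03 (SE 0.25). In DOM minus DINCH 5 of 7 were called, a share of 71.4% beside 20.5% of all tested genes. Gas6, Prrg2 and the anticoagulant protein S gene Pros1 were higher with DOM, by 1.02, 0.60 and 0.73, and Bglap3 and Prrg1 were lower, by −0.89 and −0.64. The call of Prrg2 there was lost without DOM replicate 1 or DINCH replicate 2 or 3, and that of Prrg1 without DOM replicate 2.

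Among the regulators of mineralization 7 of 16 genes were tested, and Alpl, Enpp1 and Ibsp, which act in bone, were not among them. With DOM 2 were called in opposite directions, a share of 28.6% beside 18.5% of all tested genes. Spp1, which encodes osteopontin, a secreted inhibitor of mineral growth, fell by 1.86 (SE 0.28, adjusted p = 0.0016 by limma). Fam20a, which assists the kinase of secreted mineral-binding proteins, rose by 1.27 (SE 0.23, adjusted p = 0.0034). Spp1 was thus lower where Mgp was higher. With DINCH 0 of the 7 were called and 4 had an unadjusted p below 0.05, beside 30.8% of all tested genes. Spp1 differed by −0.76 there (SE 0.25, adjusted p = 0.087), the same sign as with DOM. In DOM minus DINCH the same 2 genes were called, Spp1 at −1.10 and Fam20a at 1.66, a share of 28.6% beside 20.5% of all tested genes.

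The BMP ligands on the list, Bmp2, Bmp4, Bmp6 and Bmp7, did not pass the test filter in any comparison. With DOM 6 of 24 tested BMP genes were called, 4 higher and 2 lower, a share of 25% beside 18.5% of all tested genes. The largest change was in Id3, a direct target of BMP Smads that blocks differentiation factors. Id3 stood at −0.80, −0.49, −0.40 and −0.67 on the DMSO arrays and at 2.68, 2.02, 1.74 and 2.66 on the DOM arrays in replicates 1 to 4. It rose by 2.87 (SE 0.22, adjusted p = 0.00017 by limma) with DOM, with no overlap. Id1, a target of the same kind, stood at 0.86, 0.74, 0.70 and 0.48 with DMSO and at 2.23, 1.15, 1.31 and 1.74 with DOM, and rose by 0.91 (SE 0.22, adjusted p = 0.013). The inhibitory Smad6 gene, also a target, rose by 1.42 (SE 0.28). The receptor gene Bmpr2 rose by 0.67, a call lost without DOM replicate 1 or 2 or DMSO replicate 2 or 4. Of the extracellular antagonists, Fst, which encodes follistatin, fell by 1.67 and Chrd, which encodes chordin, by 0.61. The Fst arrays of DOM and DMSO overlapped, and its call was lost without DOM replicate 2 or 4. The Chrd call was lost without DOM replicate 1 or DMSO replicate 2 or 3.

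With DINCH 3 of 23 tested BMP genes were called, all lower, a share of 13.0% beside 6.96% of all tested genes. Id1 stood at −0.29, 0.06, 0.01 and −0.18 on the DINCH arrays, below all 4 DMSO arrays, and fell by 0.79 (SE 0.12, adjusted p = 0.0070 by limma). For Id1, then, DINCH and DOM lay on opposite sides of DMSO, as for Mgp. For Id3 they did not, since the DINCH arrays stood at 1.08, −0.08, −0.30 and 0.24, a difference from DMSO of 0.82 (SE 0.26, adjusted p = 0.081). Grem1, which encodes the secreted antagonist gremlin, fell by 1.24 and the inhibitory Smad7 gene by 0.84. The Grem1 call held in 2 of the 8 fits that each left out 1 array and the Smad7 call in 3 of 8. With MEHP, Id3 was the 1 BMP gene called of 23 tested, a share of 4.35% beside 1.52% of all tested genes. It stood at 0.00, 0.25, 0.16 and 0.16 and rose by 0.74 (SE 0.11, adjusted p = 0.016), a call lost without MEHP replicate 2 or 4. With DOS, Id3 stood at 0.04, 0.22 and 0.04, a difference of 0.69 (SE 0.13) that was not called (adjusted p = 0.36).

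Between DOM and DINCH 7 of 24 tested BMP genes were called, a share of 29.2% beside 20.5% of all tested genes. Id1 was higher with DOM by 1.71 (SE 0.22, adjusted p = 0.00043 by limma), Id3 by 2.04 (SE 0.31, adjusted p = 0.0011), Grem1 by 0.93 and Smad6 by 0.81. The Smad6 call held in 2 of 8 fits that left out 1 array. Atoh8, a target of BMP signalling, was well above background on all 4 DOM arrays and on 0 DINCH arrays, and was at least 2.08-fold higher with DOM. The bound sets the DOM mean against the lowest signal well above background on each DINCH array. Atoh8 passed the test filter through the DOM arrays alone, so the filter favoured a higher value with DOM, and its call is a description. Fst was lower with DOM by −2.25 (SE 0.34) and the membrane BMP binder Crim1 by −0.72 (SE 0.11).

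Of 19 matrix and elastic fibre genes, 14 were tested in each of these comparisons, and the elastin gene Eln was not among them. With DOM 3 were called, all higher, a share of 21.4% beside 18.5% of all tested genes. Ltbp2, a protein of elastic microfibrils, rose by 0.89 (SE 0.19, adjusted p = 0.0073 by limma), Emilin1, which lies between elastin and microfibrils, by 1.01 (SE 0.26), and the microfibril gene Mfap5 by 0.86. The Mfap5 call held in 2 of 8 fits that left out 1 array. With DINCH 2 were called, both lower, a share of 14.3% beside 6.96% of all tested genes. Fbn1, the fibrillin at the core of the microfibril, stood at 0.59, 1.11, 1.37 and 1.53 with DMSO and at −0.67, −0.02, 0.53 and −0.29 with DINCH. It fell by 1.26 (SE 0.27, adjusted p = 0.022), and Fbln5, which helps to assemble elastic fibres, by 0.78. The Fbn1 call held in 3 and the Fbln5 call in 2 of 8 fits that left out 1 array. Fbn1 was not called with DOM, at 0.07 (SE 0.28). With MEHP Fbln5 fell by 0.72 (SE 0.13), a call that held in 1 of 8 such fits. It was the 1 gene called there of 14, a share of 7.14% beside 1.52% of all tested genes. Between DOM and DINCH 7 of 14 were called, 50% beside 20.5% of all tested genes, and 6 of the 7 were higher with DOM. They were Fbn1 at 1.33 (SE 0.29), the fibronectin gene Fn1 at 0.93 (SE 0.15), Mfap5 at 1.03, Ltbp2 at 0.86, Ltbp3 at 0.67 and Emilin1 at 0.67, the last lost without DOM replicate 2 or 4. Fbln1 was lower with DOM, by −0.85.

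Of 12 transcription factors listed as possible regulators of Mgp, 10 were tested against DMSO. Whether they act on Mgp in these cells was not tested. With DOM 4 were called, a share of 40% beside 18.5% of all tested genes. The oestrogen receptor gene Esr1 rose by 1.15 (SE 0.14, adjusted p = 0.00059 by limma), and its other 2 probes had the same sign. The AP-1 gene Fosl2 rose by 1.27 (SE 0.17) and the bone factor gene Runx2 by 1.19 (SE 0.23). Sox9, a factor of both cartilage and Sertoli cells, fell by 0.92 (SE 0.15), although it was well above background on 1 of the 4 DOM arrays. It passed the test filter through the DMSO arrays alone, so the filter favoured a lower value with DOM. With DINCH 2 were called, a share of 20% beside 6.96% of all tested genes. Fosl1, an AP-1 gene, stood at 0.13, −0.46, −0.42 and −0.39 with DMSO and at −3.33, −1.38, −1.98 and −2.02 with DINCH, and fell by 1.89 (SE 0.36, adjusted p = 0.014), with no overlap. Its arrays with DOM stood at 0.16, 0.04, 0.28 and −0.30. Rxra, a partner of several nuclear receptors, rose by 0.92 (SE 0.13) by its brightest probe, while another probe differed by −0.15. In DOM minus DINCH 4 of 9 were called, a share of 44.4% beside 20.5% of all tested genes. All were higher with DOM, namely Fosl1 at 2.22 (SE 0.35), Fosl2 at 1.34, Esr1 at 0.93 and Runx2 at 0.76. The other probe of Fosl2 had the opposite sign there, at −0.11.

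**Figure D4:**
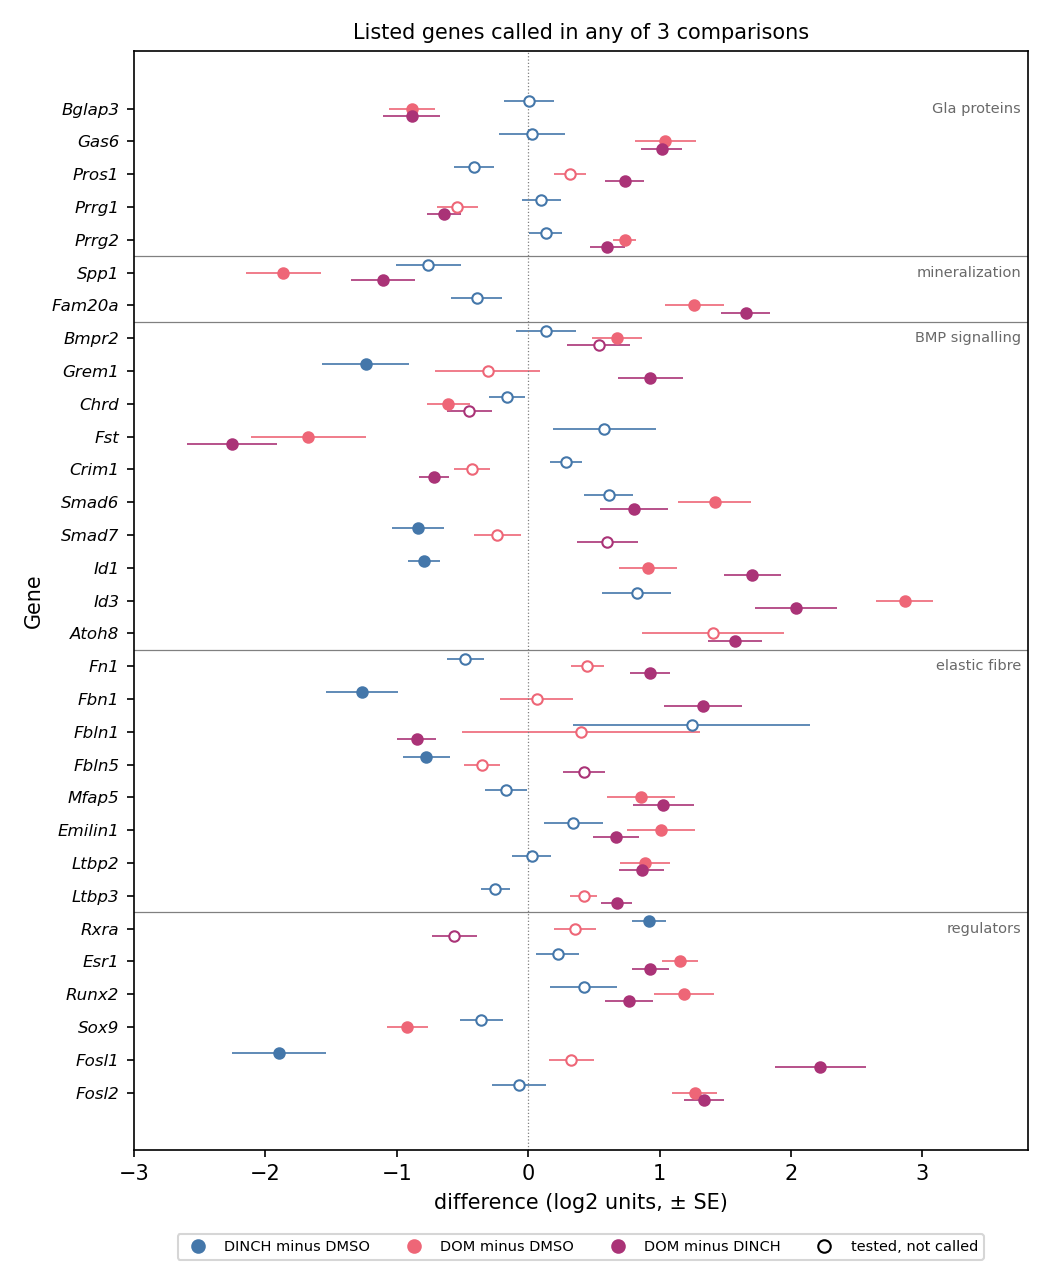
Log2 difference ± SE (horizontal axis) of the listed genes called in DINCH minus DMSO, DOM minus DMSO or DOM minus DINCH, by list; filled points were called and open points were tested and not called. Id1 lies at −0.79 with DINCH and 0.91 with DOM, Id3 at 0.82 and 2.87, and Fosl1 at −1.89 and 0.33; the point of Atoh8 against DINCH is a fitted value for a gene not above background there.

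Of the called listed genes, 3 of 7 for DINCH (Id1, Fosl1 and Rxra), 14 of 18 for DOM, 21 of 25 for DOM minus DINCH and 0 of 2 for MEHP stayed called in every fit that left out 1 array. Under every one of the 7 other settings tried, 0 of 7, 8 of 18, 12 of 25 and 0 of 2 stayed called. No called gene changed sign. In DOM minus DINCH the Runx2 call was lost with normexp, without the filter on dim probes and in the joint fit of all groups, and the Grem1 call with normexp and without the filter. The DINCH count fell from 7 to 4 without DINCH replicate 1, DMSO replicate 2 or DMSO replicate 3. The MEHP count was 0 without MEHP replicate 2 or 4, 1 without MEHP replicate 1 or 3 or DMSO replicate 2 or 3, and 5 without DMSO replicate 1. Without the filter on dim probes the counts were 0 for both DINCH and MEHP.

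The genes beside Mgp on its chromosome were examined as well. In the RefSeq order H2aj, Wbp11, BC049715, Smco3 and Art4 lie on one side, and Erp27, Arhgdib, Pde6h, Rerg and Ptpro on the other. Against DMSO 0 of 5 tested neighbours were called by limma with DINCH, MEHP, BDB or DOS, with 1, 1, 1 and 0 of them at an unadjusted p below 0.05, beside 30.8%, 18.8%, 16.3% and 6.34% of all tested genes. With DOM 2 of 6 were called, beside 18.5% of all tested genes, and 5 of 6 had an unadjusted p below 0.05, beside 47.3%. The histone gene H2aj fell by 1.47 and Pde6h, a phosphodiesterase subunit of cone photoreceptors, rose by 1.00. Between DOM and DINCH 3 of 6 were called, beside 20.5% of all tested genes, and 4 of 6 had an unadjusted p below 0.05, beside 47.1%. The called genes were H2aj at −1.23, Pde6h at 1.23 and Rerg, a RAS-related growth inhibitor. Rerg was well above background on 4 DOM arrays and 0 DINCH arrays and was at least 2.13-fold higher with DOM. It passed the test filter through the DOM arrays alone, so the filter favoured a higher value with DOM, and its call is a description. Erp27 and Arhgdib, next to Mgp on one side, were called in 0 of the 6 comparisons. By less than 1.5-fold, Arhgdib was lower with DINCH, at −0.39 (SE 0.09, adjusted p = 0.024 by limma). With DOM it was lower as well, at −0.36 (SE 0.11, adjusted p = 0.037), as was Erp27, at −0.43 (SE 0.13, adjusted p = 0.034).

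Markers of cells known for Mgp were compared by their summed signal, as a percentage of the 75th percentile of the array. The chondrocyte and osteoblast list summed to 9.88% to 21.9% on the DOM arrays, 13.1% to 17.0% on the DINCH arrays and 10.2% to 19.3% on the DMSO arrays. The peritubular and smooth muscle list gave 12197% to 16285% with DOM and 12386% to 15647% with DMSO, ranges that overlapped, and 15177% to 16965% with DINCH. With DOM its members differed in direction from each other, since Cnn1 fell by 1.21 and Smtn by 0.78 while Acta2 was at 0.38 and not called. With DOS, where Mgp was higher as well, this list summed to 21049% to 26066%, above all DMSO arrays. Acta2, Tagln and Cnn1 differed there from DMSO by 0.71, 0.71 and 0.81, none of them called. The fibroblast list gave 16836% to 29023% with DOM, 14081% to 21989% with DMSO and 11531% to 17545% with DINCH. The Sertoli list summed to 5270% to 7584% with DOM and to 2272% to 3363% with DMSO. The sum was carried by 1 bright member, Inhbb, an inhibin and activin subunit, which rose by 1.61 (SE 0.27, adjusted p = 0.0025 by limma). Other members went the other way, with Sox9 lower as above and Rhox5, Kitl and Dhh at −0.87, −0.61 and −0.39 and not called. The part of these lists in the Mgp differences was not tested.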

How the data were processed

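RNA was hybridized to Agilent 8x60K mouse arrays. The authors extracted the deposited spot intensities with Feature Extraction 11.5.1.1, which subtracts background and marks outliers. They also deposited log2 values from GeneSpring 12.6.1, which they set relative to the 75th percentile per array and then to the median across arrays, used here as an alternative. The lowest correlation of an array with its column there was 0.9996. Here intensities below 1 were set to 1, log2 was taken, and the 75th percentile of the 59305 non-control spots on each array was subtracted. Spots marked as outliers were dropped before averaging by probe. Matching RefSeq accessions named 26582 probes. Groups were fitted pairwise in limma 3.58.1 (R 4.3.3, with the data.table package, version 1.17.8), and intervals are from these fits. Figures used Python 3.11.15 and matplotlib 3.10.9. The array design and the gene table use different builds, so no coordinates are given.

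Named genes are Mgp, called members of the 6 lists and others where a role needed one, the 10 most like and 5 most opposite genes by Pearson r, and the 5 nearest genes with a probe on each side. The members and lists were chosen with earlier results of these data known. The methods call the replicates biological, with 1 DOS array left out by the authors for high background. Alternatives were quantile normalization, normexp with an offset of 50, the authors' table, outlier spots kept, no filter, a block for slide, a block for replicate number, a joint fit of all 6 groups, and leaving out each array. Arrays with 1 number deviated together from their groups, with correlations above 0.1 in every pair, for DINCH (0.17 to 0.49), BDB (0.24 to 0.43) and DOS (0.19 to 0.45). They did not in every pair for MEHP, DOM or DOM minus DINCH. The number was read as a possible pairing from the values and not from the labels. Except where a block is named, all standard errors, intervals, calls and adjusted p values are from fits without pairing. Fits with the number as a block are an alternative. The steps were tested on simulated data. Viability and qPCR data were not analysed here. Some listed genes are not reported here.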

Additional observations from a re-analysis of the deposited data

Results flagged for a closer look

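Mgp in DMSO replicate 1 stood at −0.70 (log2 relative to the 75th percentile of the array), while the other 3 DMSO arrays stood at 0.42 to 0.49. The gap was 0.95 of the range of the group, more than Dixon's limit for 4 samples. It was the 1 array so marked among the 5 groups of 4, and chance marks about 1 in 20 such groups. Replicate 1 was also the lowest array in the other groups.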

How the results depend on the processing

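Under quantile normalization, the authors' values and slide as a block, the 6 Mgp differences kept their direction and moved by less than the spread between replicates. Keeping outlier spots could not move them, since the Mgp spot was never marked as an outlier. The replicate number as a block could not move a difference between groups that held all 4 numbers. For DOS, which lacked 1 number, it gave 1.21 in place of 1.101. With normexp the DINCH difference was −1.87 and DOM minus DINCH 5.19, while the other 4 Mgp differences moved by less than that spread. Leaving out 1 array gave Mgp differences of 6.40 to 6.82 for DOM minus DINCH and, against DMSO, 3.21 to 3.66 (DOM), 0.82 to 1.46 (DOS), 0.24 to 0.90 (BDB), −1.28 to −0.74 (MEHP) and −3.44 to −2.91 (DINCH). With the replicate number as a block, Mgp differed by −3.16 (SE 0.09) with DINCH, 0.53 (SE 0.11) with BDB, 1.21 (SE 0.11) with DOS and −0.99 (SE 0.13) with MEHP, and the listed genes called were 4 for MEHP, 9 for DINCH, 0 for BDB and DOS, 19 for DOM and 25 for DOM minus DINCH. Same-numbered arrays mostly shared a slide too. With normexp the called listed genes numbered 4 for MEHP, 11 for DINCH and 15 for DOM minus DINCH, and without the filter 0 for both MEHP and DINCH. With 1 array left out, the counts were 23 to 26 for DOM minus DINCH, 16 to 19 for DOM, 4 to 6 for DINCH, 0 to 5 for MEHP and 0 for BDB and DOS. Without the filter the median of all genes moved to −0.10 for DOM and −0.19 for DOM minus DINCH, and 12 and 18 listed genes were called. The cause of these changes was not tested. Mgp had 1 probe, so no other probe could be compared, and its DINCH signals lay closest to background.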
